A study of Mus musculus with 4 samples.

Results

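The microRNA genes described here lie on mouse chromosome 12, in the imprinted Dlk1-Dio3 interval, in the block that runs from Mir337 to Mir370, upstream of Mir379. They were taken by symbol from the platform annotation of the array, and 9 of the 10 listed genes have a probe set that carries their symbol alone, out of 19938 genes tested. These 9 are Mir337, Mir540, Mir665, Mir431, Mir127, Mir434, Mir136, Mir341 and Mir370. The 10th, Mir433, shares its probe set in the annotation with 6430411K18Rik, an older symbol that the RefSeq gene table lists as a synonym of Rtl1, so that probe set is given separately and enters no count. Among the probe sets of a gene, the measured value to be used was chosen by brightness (the highest mean over the arrays), but each of the 9 genes has 1 probe set, so brightness decided nothing. The block was proposed with earlier results of these arrays known, and its values are therefore given as a description.

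RNA came from fetal whole brain of C57BL/6J mice, an inbred strain, at embryonic day 16. Pregnant females had received 2 injections of saline, with or without ethanol at 2.5 g per kg, on gestational days 14 and 16, and were killed on day 16. The ethanol and the control group each have 2 arrays, and each array carries pooled RNA of 3 mice (12 in all). The sex of the fetuses is given as unknown, and the strain is the same in both groups. Since the sources used here do not say how litters were spread over the pools, a p-value measures only the spread between these pools. In whole brain, fewer cells that make a transcript and less transcript per cell cannot be told apart.

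Imprinting leaves only 1 parental copy of a gene active. In this interval the copy inherited from the mother makes noncoding RNAs, among them Meg3 and Rian (also called Meg8), the microRNAs and many small nucleolar RNAs, while the copy inherited from the father makes the proteins Dlk1, Rtl1 and Dio3. Rtl1 is a gene derived from a retrotransposon and is needed in the placenta and in fetal muscle. Several of the microRNAs are cut from an RNA that runs antisense to it, so they match the Rtl1 message perfectly and can direct its cleavage. A microRNA is made from a long primary transcript, from which Drosha with Dgcr8 releases a hairpin and Dicer then cuts the mature strands. Each mature strand recognises messages mainly through its seed, bases 2 to 8.

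The position of the hairpins bears out the name "antisense to Rtl1" for most, but not for all, of the block. In the RefSeq gene table, 8 of the 10 listed hairpins (7 of the 9 measured ones) lie within the span of Rtl1. The hairpins of Mir341 and Mir370 lie outside it and within the span of Rian. The block is therefore called Mir337 to Mir370 below. In the RefSeq microRNA table (build GRCm38.p6, plus strand) the Mir337 hairpin is at chr12:109585789-109585885 and that of Mir540 at chr12:109586080-109586146. Mir665 is at chr12:109586314-109586407 and Mir431 at chr12:109590447-109590537. Further downstream come Mir127 at chr12:109592846-109592915, Mir434 at chr12:109594506-109594599 and Mir136 at chr12:109595327-109595388. Mir341 is at chr12:109611500-109611595 and Mir370, the last of the block, at chr12:109618258-109618336. The sources used here name no build for the array design, so these are positions of the printed sequences and not of the probes.

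Mature sequences of all 10 listed genes were found in RefSeq, with 20 mature strands of 20 to 26 bases. The strands below are shown for the 5 genes whose values stood farthest apart between the groups (Mir337, Mir540, Mir665, Mir431 and Mir341) and for 2 whose arrays overlapped (Mir127 and Mir136). The seed is in capitals.
mmu-miR-337-5p: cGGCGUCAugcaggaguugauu
mmu-miR-337-3p: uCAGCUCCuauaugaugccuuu
mmu-miR-540-5p: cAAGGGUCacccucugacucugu
mmu-miR-540-3p: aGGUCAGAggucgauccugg
mmu-miR-665-5p: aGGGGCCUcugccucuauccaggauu
mmu-miR-665-3p: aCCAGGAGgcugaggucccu
mmu-miR-431-5p: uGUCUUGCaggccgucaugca
mmu-miR-431-3p: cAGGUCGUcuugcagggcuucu
mmu-miR-341-5p: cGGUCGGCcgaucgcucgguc
mmu-miR-341-3p: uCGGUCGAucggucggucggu
mmu-miR-127-5p: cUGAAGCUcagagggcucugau
mmu-miR-127-3p: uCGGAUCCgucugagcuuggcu
mmu-miR-136-5p: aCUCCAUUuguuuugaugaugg
mmu-miR-136-3p: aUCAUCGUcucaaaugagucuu

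The block is not a seed family. All 20 seeds were different, and 0 seeds were shared between 2 of the genes. Only 2 strands had the seed of a microRNA outside the block, miR-540-3p with miR-6915-5p and miR-370-5p with miR-1193-3p. The longest run that 2 hairpins of the block share is CGUCAUGCAGG, 11 bases common to Mir337 and Mir431, and no other pair shares more than 8. Mir341 and Mir434 hold internal repeats, and so do other hairpins of the block. The longest run found 3 times within a hairpin had 11 bases in Mir434, 7 in Mir341 and in Mir431, and 6 in Mir665. In the hairpin of Mir341 the letters GGUC occur 7 times (capitals), and in that of Mir434 the letters GGUUUGAACCA occur 3 times (capitals).
Mir341 hairpin: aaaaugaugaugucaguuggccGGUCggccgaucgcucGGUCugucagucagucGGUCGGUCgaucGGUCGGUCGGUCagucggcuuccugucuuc
Mir434 hairpin: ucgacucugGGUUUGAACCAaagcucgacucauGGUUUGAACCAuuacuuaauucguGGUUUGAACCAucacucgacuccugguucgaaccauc

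The values are deposited log2 brightness values. RNA was cleaned on columns that keep long RNA and are known to lose most RNA as short as a mature microRNA, and it was copied by whole-transcript labelling. Which RNA a microRNA probe set reads here, the primary transcript, the hairpin or the mature strand, was not tested. Levels of different probe sets are not compared as amounts of RNA, since the probes of different genes differ in how brightly they bind.

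Within the block, 5 microRNA genes were lower on both ethanol arrays than on both control arrays by about 1.2-fold to 1.3-fold, a 6th was lower by a smaller amount, and 3 overlapped between the groups. Of all genes, 14.0% were lower on both ethanol arrays than on both control arrays by any amount. No gene passed the test over all genes. The first 3 genes of the block gave the clearest separation.

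Mir337, at the upstream end of the block and within the Rtl1 span, had a log2 value of 9.87 in ethanol 1 and 9.81 in ethanol 2, against 10.19 in control 1 and 10.24 in control 2. The 2 arrays of a group lay close together, and the lowest control array stood 0.33 above the highest ethanol array. The difference, ethanol minus control, was -0.37 ± 0.07 (log2, SE, 2 arrays per group), or 1.30-fold lower, with a limma adjusted p of 0.980 over all genes.

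Mir540 stood at 9.32 and 9.48 in ethanol and at 9.82 and 9.78 in control. Ethanol 1 was the lowest array and both controls were again above both ethanol arrays, with a gap of 0.30. Its difference of -0.40 ± 0.08 was the lowest of the 9 genes (1.32-fold lower, limma adjusted p of 0.980).

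Mir665, next along the chromosome, stood at 11.72 and 11.65 in ethanol and at 11.99 and 12.07 in control. The groups were separated by 0.27, and the arrays within a group differed by less than 0.1. The difference was -0.35 ± 0.07 (1.27-fold lower, limma adjusted p of 0.980).

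Mir341, the member within the Rian span whose hairpin is printed above, stood at 11.67 and 11.87 in ethanol and at 12.13 and 12.12 in control. The control arrays nearly coincided, while the ethanol arrays differed by 0.20 from each other, and the gap between the groups was 0.25. The difference was -0.35 ± 0.09 (1.28-fold lower, limma adjusted p of 0.980).

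Mir431, a microRNA reported to lower the WNT antagonist Kremen1 in neurons and Pax7 and Smad4 in muscle precursors, stood at 8.20 and 8.35 in ethanol and at 8.46 and 8.68 in control. Its arrays spread more within a group, and the gap between the groups was 0.12, smaller than the difference of 0.22 between the 2 control arrays. The difference was -0.30 ± 0.10 (1.23-fold lower, limma adjusted p of 0.980).

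Mir434, with the repeated hairpin shown above, stood at 5.79 and 5.80 in ethanol and at 5.94 and 5.91 in control. The groups did not overlap, but the difference of -0.13 ± 0.07 (limma adjusted p of 0.980) was smaller than those of the 5 genes above. This probe set was dim, at percentiles 4.77 to 11.2 of all probe sets of an array.

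The other 3 genes overlapped between the groups. Mir127, a microRNA reported to target Bcl6, stood at 8.23 and 7.95 in ethanol and at 8.06 and 8.18 in control, so that ethanol 1 was its highest array and ethanol 2 its lowest (difference -0.03 ± 0.11). Mir136 stood at 7.14 and 7.10 in ethanol, between the control values of 6.996 and 7.235 (difference 0.01 ± 0.10). Mir370 stood at 7.50 and 7.49 in ethanol and at 7.54 and 7.49 in control, with a difference of -0.01 ± 0.07. For these 3 genes the limma adjusted p was 0.995 to 0.998, which does not show that the groups are equal.

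The probe set annotated to both Mir433 and 6430411K18Rik, between Mir431 and Mir127, stood at 8.43 and 8.42 in ethanol and at 8.59 and 8.83 in control. Both ethanol arrays lay below both control arrays, with a difference of -0.28 ± 0.10 (limma over all probe sets, adjusted p of 0.995). Control 2 was its highest array, as in Mir337, Mir665, Mir431 and Mir136. Whether Mir433 or Rtl1 RNA gave this signal cannot be told apart.

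**Figure D1:**
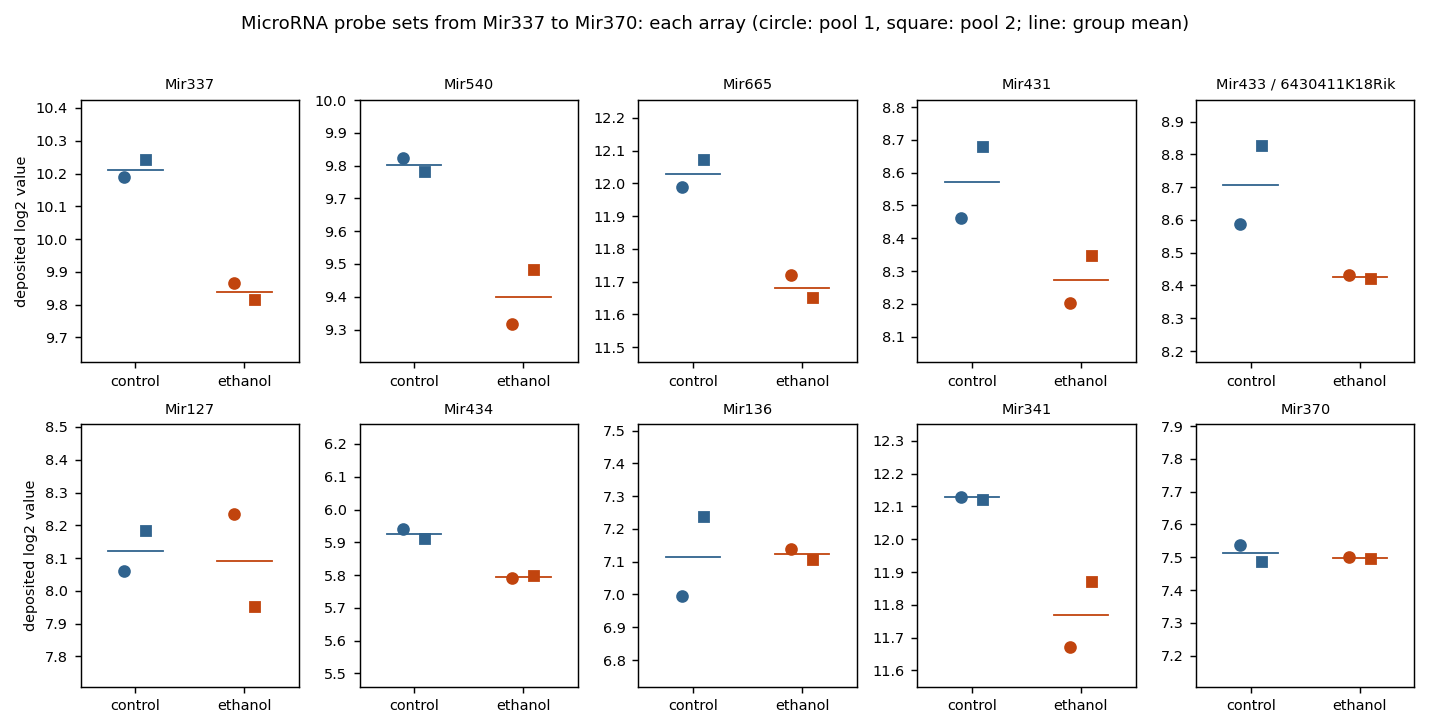
Deposited log2 value (y axis, 0.8 log2 units in each panel) on every control and ethanol array for the 9 genes and for the probe set annotated to Mir433 and 6430411K18Rik. Circles are pool 1, squares pool 2 and lines the mean of 2 arrays; the groups are apart in Mir337, Mir540, Mir665, Mir431, Mir434, Mir341 and the Mir433 panel, and they overlap in Mir127, Mir136 and Mir370.

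Across the 19938 genes of the fit, 0 (0.0%) had a limma adjusted p below 0.05. Without adjustment 587 genes (2.94%) had a p below 0.05 in either direction. Combined with a change of 1.2-fold or more, that unadjusted limit was met by Mir337, Mir540, Mir665, Mir431 and Mir341, all lower in ethanol (5 of 9), where 0.537% of all genes (107) met it in that direction. That count over all genes moved with the array left out, to 413 without ethanol 2 and 882 without control 2, where 5 and 4 genes of the block met it, and it was 14 in the ordinary test without shared variance, where 3 did. Both ethanol arrays were below both control arrays in 6 of the 9 genes and in 14.0% of all genes. A difference below 0 was found in 8 of the 9 and in 45.8% of all genes. The median difference over the 9 genes was -0.30, and over all genes it was 0.009. Because the block was proposed with these differences known, these shares describe it and do not test it.

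By unadjusted p the genes of the block were spread over the whole list of 19938. Mir337 ranked 6th, Mir540 11th, Mir665 12th and Mir341 43rd, whereas Mir431 ranked 272nd and Mir434 1382nd. Mir127, Mir370 and Mir136 ranked 15899th, 16820th and 19004th. Neighbours therefore differed: Mir337, Mir540 and Mir665 and, further along, Mir341 had differences of -0.40 to -0.35, while the genes on either side of Mir341, Mir136 and Mir370, had differences of 0.01 and -0.01. That the differences of these neighbours are unequal was not tested.

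The 5 genes with the larger differences lay above the median brightness of the array. Among all probe sets of an array, Mir665 lay at percentiles 94.0 to 96.1, Mir341 at 94.1 to 96.3, Mir337 at 75.5 to 80.9, Mir540 at 68.8 to 75.2 and Mir431 at 52.4 to 59.4. Mir127 lay at percentiles 49.3 to 53.0, Mir370 at 42.2 to 42.9 and Mir136 at 35.0 to 38.9. The G and C content of the hairpin was 52.6% to 61.2% in the 5 genes with the larger differences and 57.1%, 55.7%, 45.7% and 40.3% in Mir127, Mir370, Mir434 and Mir136. Over the 9 genes, all read on the same 4 arrays, the correlation of the difference with G and C content was r = -0.53. It was 0.13 over the 219 microRNA genes outside the interval that have a hairpin in the RefSeq table, and 0.06 over 29 genes of the cluster from Mir379 to Mir410. With the mean log2 value of the probe set, the difference correlated at r = -0.75 over the 9 genes, 0.39 over the same 29 genes of that cluster and -0.15 over the same 219 outside the interval. The part of brightness or base content in the differences was not tested.

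The spread between pools of a group was smaller than the difference for the leading genes. Over the 9 genes, control 1 minus control 2 ranged from -0.24 (Mir136) to 0.05 (Mir370), and ethanol 1 minus ethanol 2 from -0.20 (Mir341) to 0.28 (Mir127). Over all genes the SD of these 2 differences was 0.218 and 0.168. Each of the 4 pairs of an ethanol and a control array gave a value below 0 for Mir337, Mir540, Mir665, Mir431, Mir434 and Mir341. For Mir127, Mir136 and Mir370, 2 of the 4 pairs did. The median over the 9 genes was -0.26 and -0.35 when ethanol 1 was set against control 1 and control 2, and -0.14 and -0.25 when ethanol 2 was.

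Leaving out 1 array at a time kept the difference of Mir337 between -0.40 and -0.35 and that of Mir665 between -0.38 and -0.31. Mir540 ranged from -0.49 to -0.32 and Mir341 from -0.45 (without ethanol 2) to -0.25 (without ethanol 1). Mir431 moved most among the 5, from -0.41 without control 1 to -0.19 without control 2. Without ethanol 1 the count of genes of the block lower at an unadjusted p under 0.05 and a fold of at least 1.2 was 3 (Mir337, Mir540 and Mir665), against 5 with all arrays. The sign of Mir127 turned with the array left out, from -0.17 without ethanol 1 to 0.11 without ethanol 2, and that of Mir136 from -0.11 without control 1 to 0.13 without control 2. Mir370 stayed near 0, from -0.04 without control 2 to 0.01 without control 1.

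**Figure D2:**
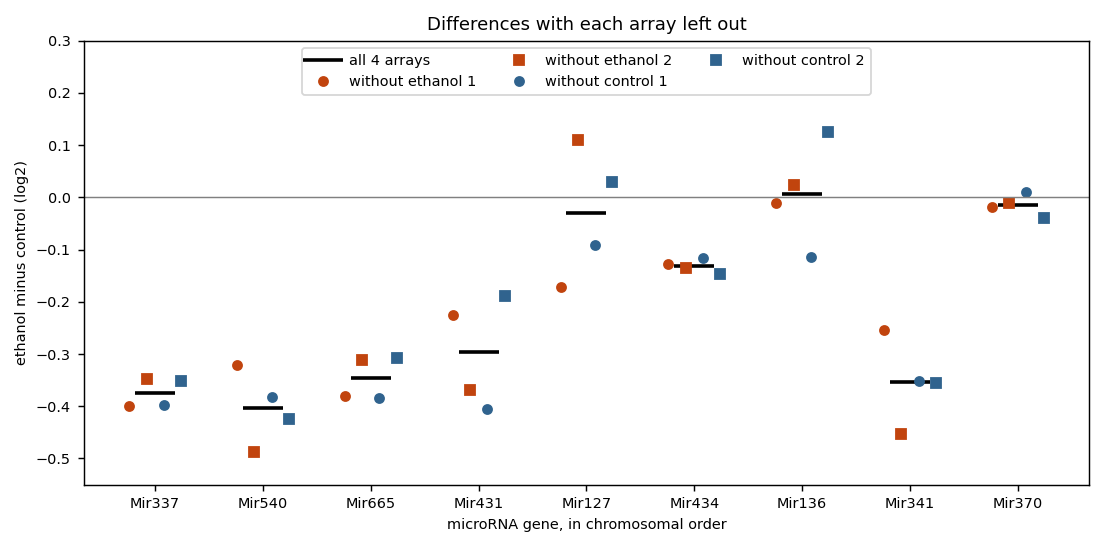
Ethanol minus control difference (y axis, log2) of each of the 9 genes in chromosomal order, with all 4 arrays (black bar) and with 1 array left out (coloured points). The points of Mir337, Mir540, Mir665, Mir431, Mir434 and Mir341 stay below 0, while those of Mir127, Mir136 and Mir370 fall on both sides of it.

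The pools also differed from each other in marker genes of other tissues and in Xist. Over 13 skeletal muscle markers the median log2 level was 9.81 in control 1, 7.19 in control 2, 7.40 in ethanol 1 and 8.21 in ethanol 2, and all 13 had a mean difference below 0 (median -0.79). The cardiac actin Actc1 stood at 12.56 in control 1 and 8.15 in control 2. Over 10 meningeal and pericyte markers the levels were 9.91 in control 1, 9.003 in control 2, 8.996 in ethanol 1 and 9.68 in ethanol 2, and all 10 had a difference below 0. Over 7 cartilage markers the levels were 7.34, 6.43, 6.65 and 7.38 in the same order, with 2 below 0. Over 8 endothelial markers the levels were 9.06, 8.95, 8.87 and 8.88 in that order. All 8 had a difference below 0 (median -0.16), and in 5 of the 8 both ethanol arrays lay below both control arrays, as in 6 of the 9 genes of the block. The part of the endothelial, meningeal and pericyte genes in the differences of the block was not tested. Of 5 erythroid markers 2, of 5 pituitary markers 2 and of 8 radial glia markers 4 had a difference below 0. The 10 neuron markers, which fit the labelled tissue, had a median level of 12.26 to 12.43 on the arrays. Their differences ran from -0.38 to 0.19, with 3 below 0. Xist, made only in females, stood at 6.10 in control 1 and at 11.96 to 12.84 on the other arrays. The Y chromosome genes Eif2s3y, Kdm5d and Uty stood at 8.72 to 11.58 over the 4 arrays, each highest on control 1. On the other arrays Xist and the Y chromosome genes were thus both read, as in pools that hold both sexes.

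The difference of control 1 minus control 2 had a median of 3.07 over the muscle markers and 0.66 over the meningeal and pericyte markers. It was 0.28 over the cartilage markers, 0.16 over the endothelial markers and -0.05 over the 9 genes of the block. Without control 1 the differences were -0.40 for Mir337, -0.38 for Mir540, -0.38 for Mir665, -0.41 for Mir431 and -0.35 for Mir341, beside -0.37, -0.40, -0.35, -0.30 and -0.35 with all arrays. Without control 2 they were -0.35, -0.43, -0.31, -0.19 and -0.36 in the same order. The part of the muscle genes in the differences of the block was not tested.

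**Figure D3:**
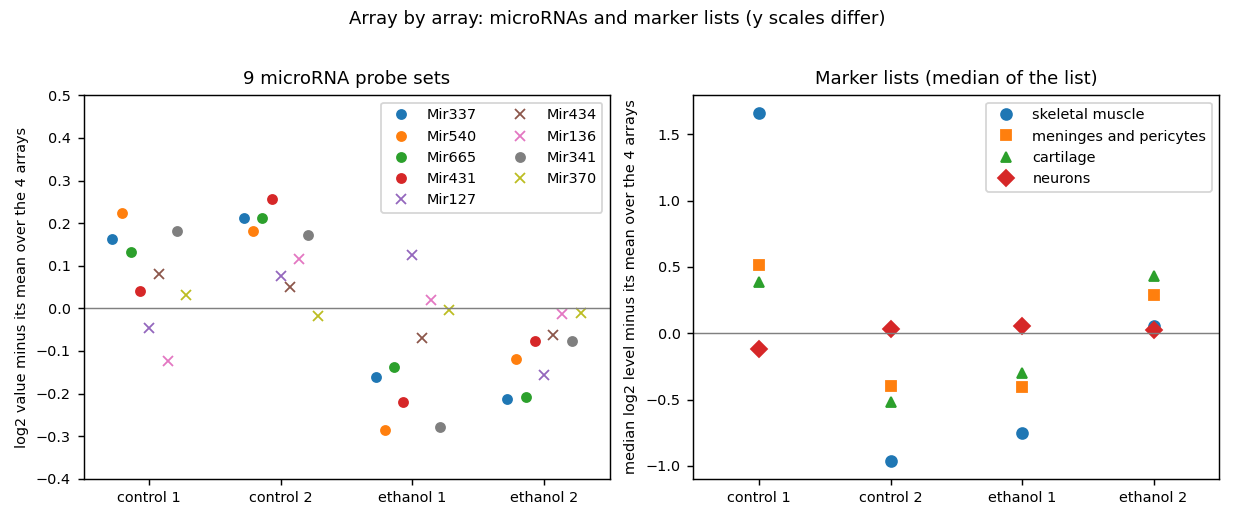
Left, log2 value of each of the 9 genes minus its own mean over the 4 arrays (circles for Mir337, Mir540, Mir665, Mir431 and Mir341, crosses for the rest); right, the same for the median of 4 marker lists, on a wider y scale. The circles are above 0 on both control arrays and below 0 on both ethanol arrays, while the muscle median is high on control 1 and low on control 2 and ethanol 1. The endothelial list is not drawn. Its median was 9.06 and 8.95 on the control arrays and 8.87 and 8.88 on the ethanol arrays, so it too was higher on both control arrays.

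The host and coding genes of the interval were set beside the microRNAs. Of 7 with a probe set, 0 had an unadjusted p under 0.05, and the median difference was -0.04. Meg3, the maternally expressed long RNA upstream of the block, stood at 12.55 and 12.52 in ethanol and at 12.61 and 12.58 in control. Its difference was -0.06 ± 0.07, and both ethanol arrays lay below both control arrays, with a gap of 0.03. Rian, whose span holds Mir341 and Mir370, stood at 10.11 and 9.90 in ethanol and at 10.05 and 10.03 in control, a difference of -0.04 ± 0.09 with overlapping groups. Rtl1 itself, transcribed from the paternal copy on the opposite strand, stood at 6.64 and 6.69 in ethanol and at 6.89 and 6.77 in control. The Rtl1 groups did not overlap, and the difference of -0.17 ± 0.08 was in the same direction as in Mir337, Mir540, Mir665 and Mir431. Meg3 and Rtl1 were the 2 of the 7 genes (28.6%) with both ethanol arrays below both control arrays, where 14.0% of all genes had them so.

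Dlk1, a membrane protein of progenitor cells that is also high in fetal muscle, stood at 10.39 and 10.83 in ethanol and at 11.61 and 10.34 in control. It was highest on control 1, the array highest in muscle markers, and its difference was -0.37 ± 0.41. Dio3, the deiodinase that inactivates thyroid hormone, had a difference of 0.02 ± 0.07. Begain and Wdr25, at the edge of the interval, had differences of -0.001 ± 0.07 and -0.01 ± 0.08. Mir673, the nearest measured microRNA upstream of Mir337, stood at 8.38 and 8.30 in ethanol and at 8.40 and 8.32 in control, a difference of -0.02 ± 0.07. By the order of gene starts Mir673 also lies within the span of Rtl1, though it is not among the listed genes of the block. The microRNA genes of the block next to Mir673, Mir337 and Mir540, thus had differences of -0.37 and -0.40 beside a value of -0.02. In a limma fit of values taken relative to Meg3 on the same array, the difference was -0.32 ± 0.07 for Mir337, -0.35 ± 0.09 for Mir540, -0.29 ± 0.08 for Mir665, -0.24 ± 0.11 for Mir431 and -0.30 ± 0.10 for Mir341 (adjusted p of 0.693 for each). Relative to Rian, Mir341 had a difference of -0.31 ± 0.16 and Mir370 of 0.03 ± 0.16 (limma adjusted p of 1 for both). Relative to Mir673, Mir337 had a difference of -0.35 ± 0.15 (limma adjusted p of 1.00). In the fits relative to Rian and to Mir673 the SE was the same for all 9 genes. It is therefore a shared value and not the spread of a single gene. Before adjustment, the limma p relative to Meg3 was 0.004 for Mir337, 0.007 for Mir540, 0.008 for Mir665, 0.067 for Mir431 and 0.018 for Mir341. It was 0.330 to 0.820 for Mir127, Mir434, Mir136 and Mir370. Relative to Rian the unadjusted limma p was 0.042 for Mir337, 0.027 for Mir540, 0.063 for Mir665, 0.119 for Mir431 and 0.057 for Mir341. Relative to Mir673 it was 0.015, 0.008, 0.025, 0.057 and 0.022 in the same order. The block was proposed with the differences between ethanol and control known. These unadjusted values therefore describe it and do not test it. The share of all genes with such a p in these fits is not given here. With 2 arrays per group, 0 genes had an adjusted p below 0.05 even in the fit of ethanol against control. The adjusted values therefore cannot decide whether the microRNA genes differ from Meg3, Rian or Mir673.

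**Figure D4:**
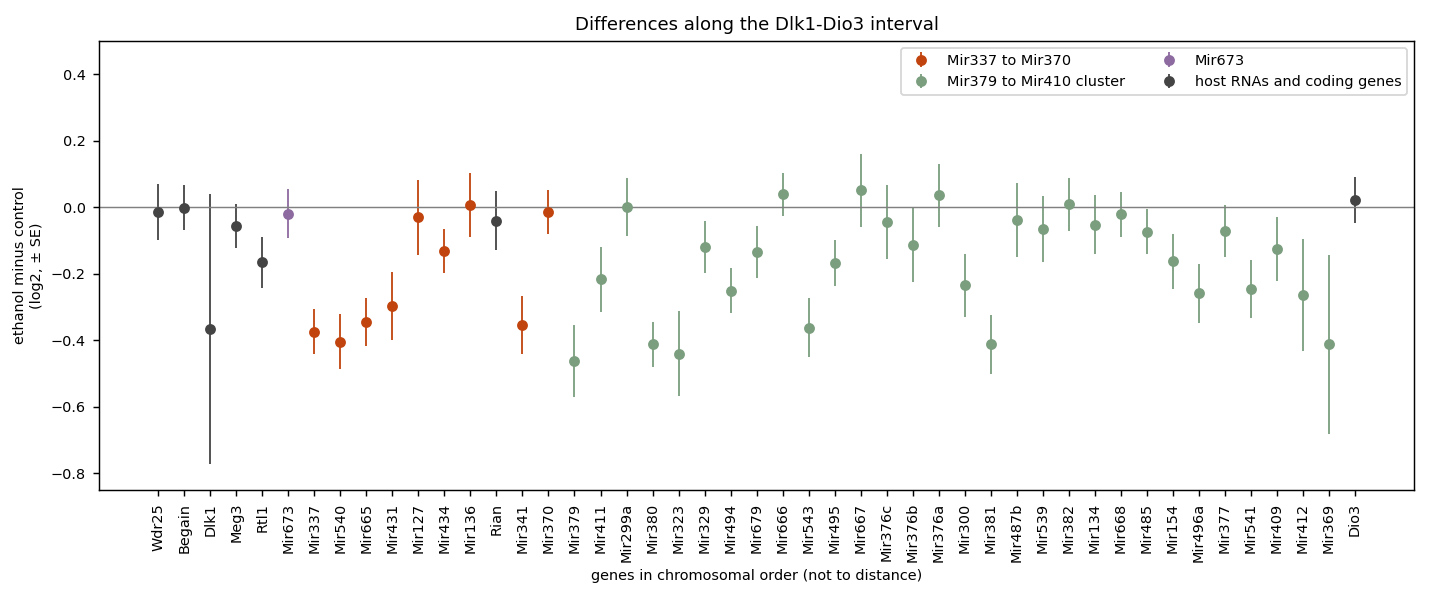
Ethanol minus control difference (y axis, log2, error bars ± SE, 2 arrays per group) of the microRNA, host and coding genes of the Dlk1-Dio3 interval, ordered along the x axis by the start of the gene. Mir337, Mir540, Mir665, Mir431 and Mir341 lie between -0.40 and -0.30, while Meg3, Rian and Mir673 lie between -0.06 and -0.02.

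The cluster from Mir379 to Mir410, downstream of the block and also made from the maternal copy, had a median difference of -0.13 over 30 genes, with 25 below 0. Of these 30, 5 were lower at an unadjusted p under 0.05 and a fold of at least 1.2 (16.7%), and both ethanol arrays were below both control arrays in 15. The corresponding shares were 5 of 9 and 6 of 9 in the block. Mir380 was the gene of that cluster with the smallest p, at 9.01 and 9.06 in ethanol and 9.47 and 9.42 in control (-0.41 ± 0.07), and Mir379, the first of the cluster, had a difference of -0.46 ± 0.11. The 260 microRNA genes outside the interval had a median of 0.04, with 103 below 0 and 6 lower by that rule (2.31%). The 51 genes of small nucleolar RNAs had a median of -0.06, with 37 below 0 and 2 lower by that rule. The difference between the block and these groups was not tested.

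The machinery that makes and uses microRNAs was measured on the same arrays. Of 26 genes of microRNA processing and action, 19 had a difference below 0 with a median of -0.06, and 0 passed the adjusted test. At an unadjusted p under 0.05 there were 2. Prkra, a partner of Dicer that binds double-stranded RNA, stood at 9.25 and 9.27 in ethanol and at 9.43 and 9.46 in control (-0.18 ± 0.07). Trim71, a ubiquitin ligase of progenitor cells whose message is a target of let-7, was higher in ethanol by 0.20 ± 0.07. The enzymes that cut the precursors had differences of -0.02 ± 0.07 (Drosha), -0.12 ± 0.10 (its partner Dgcr8) and -0.07 ± 0.08 (Dicer1).

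Of 20 genes that maintain the imprint or bind the interval, 13 had a difference below 0, the median was -0.01 and 0 had an unadjusted p under 0.05. The 2 with the largest differences were Ctcf, the insulator-binding protein, at -0.14 ± 0.07 and Uhrf1, which brings the maintenance DNA methyltransferase to replicating DNA, at -0.12 ± 0.10. Zfp57, the zinc finger protein that protects imprints after fertilisation, had a difference of 0.09 ± 0.07.

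Messages reported as targets of these microRNAs had differences of -0.21 to 0.18. Of 10 such genes, 6 had a difference below 0, the median was -0.07 and 0 had an unadjusted p under 0.05. The 2 with the largest differences were Cpt1a, the fatty acid importer of mitochondria and a reported target of miR-370, at -0.21 ± 0.11, and Foxm1, a cell cycle factor, at -0.19 ± 0.13. Both were highest on control 1. Both ethanol arrays lay below both control arrays in 3 of the 10 genes, where 14.0% of all genes did. They lay above in 1, Fgf20 (difference 0.18 ± 0.08), where 3463 of the 19938 genes did. Of the reported targets of miR-431, Kremen1 had a difference of -0.13 ± 0.14, Smad4 of 0.05 ± 0.08 and Pax7 of -0.03 ± 0.07.

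The 5 genes whose profile over the 4 arrays was most like the median profile of the block were Tmem161a, Decr2, Mir297-1 (a microRNA gene of a family with many near-identical copies), 1700020D05Rik and Dcaf11. Likeness was the root mean square difference of values centred on each gene's mean, which ranged from 0.0090 for Tmem161a to 0.018 for Dcaf11 (log2). Their differences between ethanol and control were -0.23 to -0.22. Likeness over 4 arrays rests on few points.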

How the data were processed

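The authors deposited log2 brightness values; base 2 was inferred from their range. The submitters' processing notes name Partek 6.6, while the sources used here do not give the background correction, the normalization or the summary of probes, which can shift dim values most. Of 35556 probe sets, 21789 have 1 gene symbol, 1621 several and 12146 none. Symbols were updated by Entrez identifier (21698 matched). The brightest probe set stood for a gene, which left 19938 genes. The test was limma 3.58.1 in R 4.3.3 (two-sided, moderated by eBayes, Benjamini-Hochberg adjustment over all genes), tested on simulated data. SE is the moderated standard error. The members and lists were chosen with earlier results of these data known. Named were all genes of the block and of the host list. From the lists of processing genes, interval regulators and reported targets came genes with an unadjusted p under 0.05 or else the 2 largest differences. Mir380, Mir379, Drosha, Dgcr8, Dicer1, Zfp57, Kremen1, Smad4, Pax7, Fgf20, Eif2s3y, Kdm5d, Uty and Actc1 were added after their values were seen. Sequences and coordinates are from RefSeq (GRCm38.p6). Alternatives were other scalings, a filter on dim genes, the mean of probe sets, other variance models, a replicate block and leaving out each array.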

Additional observations from a re-analysis of the deposited data

How the results depend on the processing

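The direction of Mir337, Mir540, Mir665, Mir431, Mir434 and Mir341 was the same under the alternatives run, and no gene of the block passed the adjusted threshold in any of them (adjusted p 0.469 to 1.0). The median over the block was -0.27 after quantile normalization again, -0.28 after centring and -0.29 with the Mir433 probe set; with an array left out it ranged from -0.35 to -0.19. Genes of the block lower at an unadjusted p under 0.05 and a fold of at least 1.2 numbered 5, and 3 in the ordinary test without shared variance; with an array left out they numbered 3 to 5. After quantile normalization again there were 4, without Mir431. The 107 genes of all that met this rule became 14 in the ordinary test, 236 with the crossed replicate block, 591 over all probe sets, and 78 to 882 with an array left out. Genes with both ethanol arrays below both control arrays, 2789, became 5242 over all probe sets and 5517 to 6466 with an array left out, where fewer arrays need to be ordered. Genes past the adjusted threshold, 0, were 0 to 4 with an array left out.

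Signs turned only in the 3 genes near 0: Mir127 (-0.172 to 0.110 with an array left out), Mir136 (-0.0167 after quantile normalization again, and -0.114 to 0.126 with an array left out) and Mir370 (0.00303 after centring, and -0.0387 to 0.0109 with an array left out). The cause was not tested. Nothing in the labels pairs arrays by number, and arrays of the same number deviated from their group means with a correlation of -0.484. In a fit with the replicate block the 5 genes were the same and 104 of all genes met the rule; with crossed pairing, chosen after the data were seen along with the runs on all probe sets and with the Mir433 probe set, the 5 were again the same. With 2 arrays per group the number of arrays limits the precision.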
